A study of Mus musculus with 39 samples.

Results

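The genes examined were 10 members of the circadian clock and its output: Per1, Per2, Per3, Cry1, Arntl, Clock, Npas2, Nr1d1, Nr1d2 and Dbp. They were chosen by name after values of these tumours, those of Per1 among them, had been seen. All 10 were found by symbol among the 39676 genes of the deposited count table, and each was counted in every tumour. The counts came from 39 subcutaneous tumours of AB1-HA, a mouse mesothelioma line that carries the influenza haemagglutinin, grown in BALB/c mice. The samples were whole tumours, so a change in a transcript can reflect fewer cells of a type or less RNA per cell, and these cannot be told apart.

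Mice received PBS (10 tumours), Tretinoin (9 tumours), immune checkpoint therapy (ICT, 10 tumours) or Tretinoin+ICT (10 tumours). Tretinoin, all-trans retinoic acid, was given as 5 daily doses of 5 mg/kg from day 4 per the labels, while the study's text also names other doses. ICT combined antibodies against CTLA-4 and PD-L1, 100 ug of each, on day 7, and tumours were taken on day 9. Each mouse carried a pair of tumours, and the tumour left in place gave the response label. Of the Tretinoin+ICT tumours, 6 came from responders and 4 from non-responders. The first digit of each tumour's name divides every treatment into 2 series (1 and 5 for PBS, 3 and 7 for Tretinoin, 6 and 8 for ICT, 2 and 4 for Tretinoin+ICT), and since no series holds more than 1 treatment, series and treatment cannot be told apart. The hour of the day at which tumours were taken is not given in the sources used here. Nothing in the labels states what else separated the tumours of a group, so p-values measure the spread between these tumours.

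In the mammalian clock, ARNTL (BMAL1) pairs with CLOCK or NPAS2 and binds E-boxes in the promoters of the Per and Cry genes, whose proteins then repress that pair. The nuclear receptors NR1D1 and NR1D2 (REV-ERB alpha and beta) repress Arntl in a second loop, and DBP carries the rhythm to output genes through D-boxes. Arntl and the group of Per, Nr1d and Dbp transcripts peak at opposite times of day in most mouse organs, and Per1 is also induced outside the rhythm, by glucocorticoids and by cAMP signalling.

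Promoter sequences were read from RefSeq on GRCm38.p6 as the 250 bases before each annotated start, and 9 of the 10 genes matched, with 13 starts. Per2 did not match. Those of the 3 genes with the clearest differences between groups are shown 5′ to 3′. Capitals mark the E-box CACGTG, the cAMP response element core TGACG, the REV-ERB and ROR core site AGGTCA, which reads TGACCT when on the other strand, and the D-box TTATGTAA. The Per1 windows lie at chr11:69098699-69098948 and chr11:69099902-69100151 on the plus strand. The Per3 window lies at chr4:151044666-151044915 and the Nr1d2 window at chr14:18239107-18239356, both on the minus strand.
Per1 first start: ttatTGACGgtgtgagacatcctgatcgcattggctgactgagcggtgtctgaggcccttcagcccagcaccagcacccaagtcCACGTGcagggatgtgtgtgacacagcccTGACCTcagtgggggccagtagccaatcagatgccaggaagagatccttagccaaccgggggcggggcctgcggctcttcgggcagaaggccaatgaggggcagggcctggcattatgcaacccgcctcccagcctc
Per1 second start: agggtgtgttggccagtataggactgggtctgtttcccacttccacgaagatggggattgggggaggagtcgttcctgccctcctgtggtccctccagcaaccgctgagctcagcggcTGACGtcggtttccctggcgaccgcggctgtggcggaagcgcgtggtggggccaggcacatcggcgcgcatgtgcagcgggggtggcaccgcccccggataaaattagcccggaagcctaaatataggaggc
Per3: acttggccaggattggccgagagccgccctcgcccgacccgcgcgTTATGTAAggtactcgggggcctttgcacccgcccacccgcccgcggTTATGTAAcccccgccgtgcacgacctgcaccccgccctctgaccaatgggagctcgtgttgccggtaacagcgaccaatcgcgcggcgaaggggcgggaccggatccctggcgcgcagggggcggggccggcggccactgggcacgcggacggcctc
Nr1d2: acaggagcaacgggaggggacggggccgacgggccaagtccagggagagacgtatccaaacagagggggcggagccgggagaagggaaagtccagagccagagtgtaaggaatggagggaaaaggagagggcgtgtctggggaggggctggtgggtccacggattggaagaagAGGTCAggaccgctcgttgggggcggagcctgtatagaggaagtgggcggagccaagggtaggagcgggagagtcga

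The first Per1 window held an E-box, 166 to 161 bases before the start, a cAMP response element core and a REV-ERB and ROR core site. The second held a cAMP response element core 132 to 128 bases before the start, and the Per3 window held 2 D-boxes. Both strands were searched. The E-box stood in 6.02% of 32851 promoter windows, the E-box variant CACGTT in 3.85%, the cAMP response element core in 17.8%, the core site AGGTCA in 14.02% and the D-box in 0.819%. The E-box was also found at Cry1, the variant at Cry1 and Nr1d1, the cAMP response element core at Cry1, and AGGTCA at Clock. The full cAMP response element TGACGTCA, which contains the core, and the glucocorticoid response element GNACANNNTGTNC were found in none of the 13 windows, against 1.55% and 0.387% of all windows. These are matches of letters and show no binding.

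Sequencing depth, as counts assigned to genes, lay between 14033046 and 37951183 in a tumour (median 18548168). The retinoic acid degrading enzyme Cyp26b1 checked the labels, at 5.49 to 11.7 CPM (read counts scaled to the size of each library) in PBS tumours and 242 to 386 CPM in Tretinoin tumours. The reductase Dhrs3 was at 36.9 to 52.0 CPM and 253 to 322 CPM in the same groups. Of the mesothelioma markers listed, Pdpn was at 57.9 to 75.7 CPM in PBS tumours, while Wt1 stayed at or below 1.01 CPM and Upk3b at or below 0.0601 CPM. Tretinoin+ICT tumour AB25 stood apart in immediate early genes, with a summed level of 1574 CPM against a group median of 552.6 CPM. Per kilobase of exon, the scale on which genes can be compared, Nr1d2 had the highest median of the 10 in PBS tumours (21.2 CPM per kilobase), followed by Nr1d1 (9.66), Cry1 (5.98), Per1 (5.18), Clock (4.15), Arntl (4.03), Dbp (3.73), Per2 (3.33), Per3 (2.41) and Npas2 (0.120). The range of Nr1d2 lay above and that of Npas2 below those of all other members, while each of the other 8 overlapped at least 1 other. In ICT tumours Per1 came first, at a median of 27.8 CPM per kilobase.

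**Figure D1:**
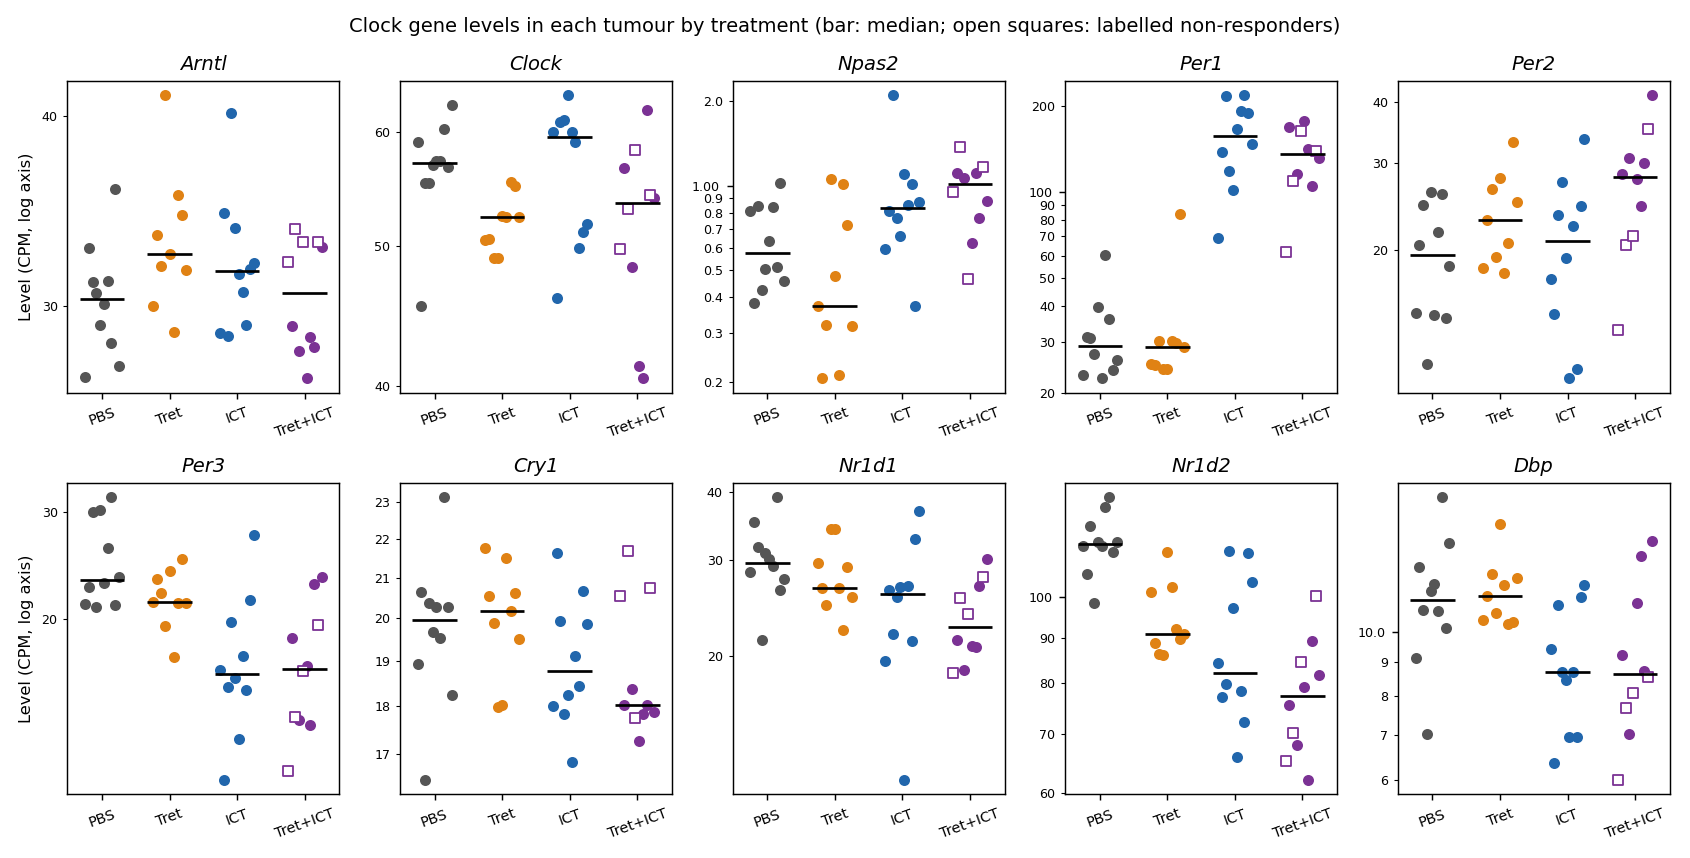
Level of each of the 10 clock genes in each tumour (CPM, log axis) by treatment, with bars at the group medians and open squares for the 4 non-responders. Per1 in the 20 tumours given ICT lies above nearly all the others, Nr1d2 and Per3 lie lower there, and Arntl, Clock and Cry1 change little.

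Per1 (GRCm38 chromosome 11, 69095217 to 69109960, plus strand) encodes a repressor of the ARNTL pair and was the member with the widest difference between groups. In PBS tumours it ranged from 22.4 to 60.2 CPM with a median of 29.2 CPM. In Tretinoin tumours it ranged from 24.2 to 84.0 CPM with a median of 28.9 CPM. Among tumours without ICT, PBS tumour AB52 and Tretinoin tumour AB74 held the highest levels, and the next, PBS tumour AB15, held 39.6 CPM. In ICT tumours the range was 68.9 to 218 CPM with a median of 157 CPM, and in Tretinoin+ICT tumours it was 61.9 to 177 CPM with a median of 136 CPM. Every ICT tumour and every Tretinoin+ICT tumour lay above every PBS tumour, and 9 of 10 Tretinoin+ICT tumours lay above every Tretinoin tumour, the exception being AB21. Because Per1's values were known when the genes were chosen, its differences with ICT are given as a description with no test: 4.87-fold higher in ICT than in PBS tumours (log2 2.28, SE 0.22) and 3.92-fold higher in Tretinoin+ICT than in Tretinoin tumours (log2 1.97, SE 0.25). Between single series the log2 difference ran from 1.94 to 2.59 for ICT against PBS and from 1.52 to 2.44 for Tretinoin+ICT against Tretinoin.

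Against PBS, Tretinoin alone left Per1 at a log2 difference of 0.07 (95% interval -0.41 to 0.56, adjusted p = 0.862). Adding Tretinoin to ICT gave a log2 difference of -0.24 (95% interval -0.62 to 0.14, adjusted p = 0.499). Neither difference exceeded the spread between tumours, and both intervals leave room for a modest change in either direction.

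Per2 (chromosome 1, 91415982 to 91459324) and Per3 (chromosome 4, 151003652 to 151044665), both on the minus strand, encode the other PER repressors and did not follow Per1 between treatments. Per2 ranged from 11.7 to 26.3 CPM in PBS tumours (median 19.5), 18.0 to 33.1 CPM with Tretinoin (median 23.0), 10.96 to 33.6 CPM with ICT (median 20.8) and 13.8 to 41.2 CPM with Tretinoin+ICT (median 28.2). All groups overlapped, and 6 of 10 Tretinoin+ICT tumours lay above every PBS tumour. Per3 was lower with ICT: PBS tumours held 20.9 to 31.8 CPM (median 23.2), Tretinoin tumours 17.3 to 25.1 CPM (median 21.3), ICT tumours 10.8 to 27.4 CPM (median 16.2) and Tretinoin+ICT tumours 11.2 to 23.4 CPM (median 16.5). Of the 10 ICT tumours, 8 lay below every PBS tumour. The log2 difference of Per3 was -0.53 (SE 0.13) for ICT against PBS and -0.35 (SE 0.12) for Tretinoin+ICT against Tretinoin, and it was negative in all 4 pairs of series in each. Leaving out Tretinoin tumour AB74 ended the Per3 call in the latter, at a log2 difference of -0.32.

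Cry1, whose protein is a strong repressor of the loop, varied least. Its level was 16.5 to 23.1 CPM in PBS tumours (median 19.97), 18.0 to 21.8 CPM with Tretinoin (median 20.2), 16.8 to 21.6 CPM with ICT (median 18.8) and 17.3 to 21.7 CPM with Tretinoin+ICT (median 18.0). Its log2 difference for ICT against PBS was -0.05 (95% interval -0.16 to 0.06).

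Of the activators, Arntl and Clock differed little between groups, while Npas2 varied more at a very low level. Arntl ranged from 27.0 to 35.9 CPM in PBS tumours (median 30.3), 28.9 to 41.3 CPM with Tretinoin (median 32.5), 28.7 to 40.2 CPM with ICT (median 31.6) and 26.9 to 33.7 CPM with Tretinoin+ICT (median 30.6). Its log2 difference for ICT against PBS was 0.08 (95% interval -0.04 to 0.20). For Tretinoin against PBS it was 0.14 (95% interval 0.02 to 0.26, adjusted p = 0.113 by edgeR). Clock ranged from 45.5 to 62.6 CPM (median 57.0) in PBS tumours and from 46.0 to 63.6 CPM (median 59.5) with ICT, a log2 difference of 0.00 (95% interval -0.12 to 0.12). With Tretinoin, Clock lay between 49.1 and 55.3 CPM (median 52.3), and with Tretinoin+ICT between 40.5 and 62.1 CPM (median 53.5). All 9 Tretinoin tumours lay below the PBS median of Clock. The log2 difference was -0.12 (95% interval -0.21 to -0.03, adjusted p = 0.077 by edgeR), which did not pass. Npas2, which can stand in for CLOCK, was scarce, with 4 to 35 counts per tumour. Its level was lowest with Tretinoin and highest with Tretinoin+ICT. The median was 0.574 CPM in PBS tumours (0.381 to 1.02), 0.374 CPM with Tretinoin (0.206 to 1.05), 0.835 CPM with ICT (0.371 to 2.10) and 1.01 CPM with Tretinoin+ICT (0.465 to 1.37). The groups overlapped, and the log2 difference was 0.86 for Tretinoin+ICT against Tretinoin (SE 0.29) and 0.58 against PBS (SE 0.21). Npas2 passed the low-count filter in all comparisons but Tretinoin against PBS, each of which includes tumours with ICT, where its level was higher. Without the filter it lost its calls for Tretinoin+ICT against Tretinoin and against PBS.

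Nr1d2 (chromosome 14, 18204054 to 18239127, minus strand) encodes REV-ERB beta and was the most abundant member per length in tumours without ICT. It held 98.5 to 130 CPM in PBS tumours (median 115) and 86.0 to 112 CPM with Tretinoin (median 90.8). With ICT the range was 65.9 to 113 CPM (median 82.1), and with Tretinoin+ICT it was 62.1 to 100.4 CPM (median 77.3). All 9 Tretinoin tumours lay below the PBS median, and 6 of them below every PBS tumour. The difference of Tretinoin from PBS was -0.28 on the log2 scale (SE 0.06, adjusted p = 0.00156), and in the 4 pairs of series it ran from -0.34 to -0.23. Beside it, 2 of 5 macrophage markers and 0 of 3 fibroblast markers were called higher with Tretinoin, and their part in the difference was not tested. ICT against PBS gave -0.38 (SE 0.09) and Tretinoin+ICT against Tretinoin gave -0.28 (SE 0.08). Nr1d1, which encodes REV-ERB alpha, ranged from 21.4 to 39.3 CPM in PBS tumours (median 29.7) and from 22.3 to 34.3 CPM with Tretinoin (median 26.7). It ranged from 11.8 to 37.1 CPM with ICT (median 26.04) and from 18.6 to 30.1 CPM with Tretinoin+ICT (median 22.7), so that all groups overlapped. Its log2 difference was -0.09 for Tretinoin against PBS (SE 0.09, adjusted p = 0.537), and -0.26 for ICT against PBS (SE 0.15).

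Dbp (chromosome 7, 45705088 to 45710203, plus strand), the output factor, ranged from 7.04 to 15.9 CPM in PBS tumours (median 11.2) and from 10.3 to 14.5 CPM with Tretinoin (median 11.3). With ICT it ranged from 6.36 to 11.8 CPM (median 8.70), and with Tretinoin+ICT from 5.99 to 13.7 CPM (median 8.64). The groups overlapped. The log2 difference was 0.03 for Tretinoin against PBS (SE 0.11, adjusted p = 0.873) and -0.34 for ICT against PBS (SE 0.13). Nr1d1 overlaps Thra, Dbp overlaps Sphk2, Per3 overlaps Camta1, Arntl overlaps Gm45355, Clock overlaps Ube2n-ps1 and Gm43658, and Npas2 overlaps Gm20428 and Gm3617. Nr1d2 was not checked for overlap, because its identifier version did not match the annotation. Whether the counting used strand is not stated, and Camta1, Ube2n-ps1, Gm43658 and Gm3617 lie on the same strand as the member they overlap, so reads in shared stretches are uncertain, for these whatever the strand setting.

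**Figure D2:**
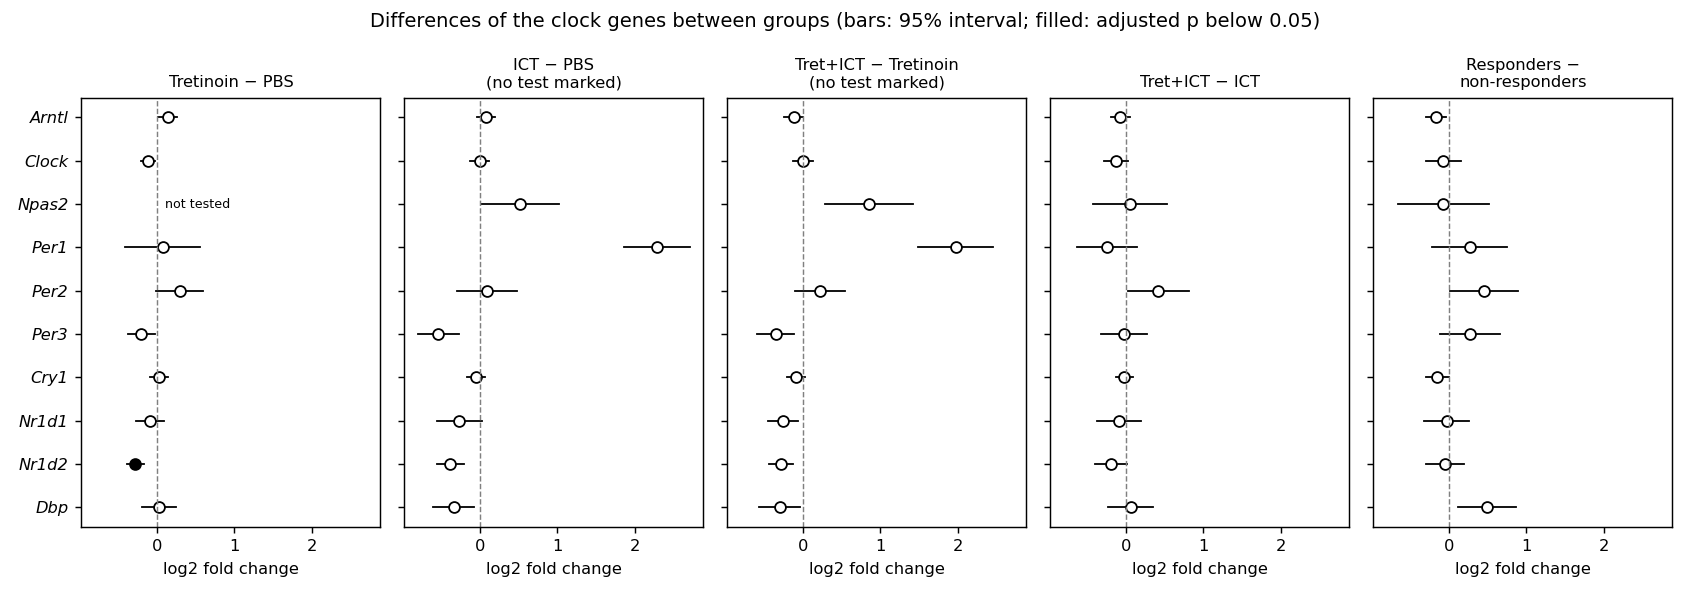
Log2 fold change of each clock gene in 5 comparisons, with bars for the 95% interval, and filled points that mark an adjusted p below 0.05, except in the 2 panels that add ICT, where no test is marked. Per1 stands near 2 in both comparisons that add ICT and near 0 in both that add Tretinoin, and Nr1d2 is the filled point of Tretinoin against PBS.

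Counted over the members, Tretinoin against PBS called 0 of 9 higher and 1 lower, Nr1d2, where 11.5% and 8.95% of all genes tested were called higher and lower by edgeR. An unadjusted p below 0.05 was reached by 4 of 9 members (Per3, Arntl, Clock and Nr1d2) and by 35.3% of all genes, and DESeq2 also called 1 member. ICT against PBS called 1 of 10 higher and 2 lower, where the background was 14.1% and 7.15%. Tretinoin+ICT against Tretinoin called 2 higher and 2 lower, with a background of 12.3% and 9.01%. Tretinoin+ICT against PBS called 3 higher (Per1, Per2 and Npas2) and 3 lower (Per3, Nr1d1 and Nr1d2), with a background of 25.7% and 24.5%. Which values led to the choice of the genes is not recorded. These 3 comparisons add ICT and were treated as used in the choice, so their counts are a description and nothing is read from them, and the tests of Tretinoin, that of Nr1d2 included, may not be independent of the choice either. The comparisons share PBS or Tretinoin tumours, so their values are not separate evidence.

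Adding Tretinoin to ICT called 0 of 10 members by edgeR, 0 by DESeq2 and 0 at an unadjusted p below 0.05 (18.1% of all genes), with a background of 1.57% higher and 0.422% lower. Per2 came nearest, at a log2 difference of 0.42 (SE 0.20, adjusted p = 0.279). The interaction of Tretinoin and ICT, tested over all 39 tumours, called 0 members by edgeR and 0 by DESeq2, with a background of 0.307%. Arntl alone had an unadjusted p below 0.05 for the interaction (9.45% of all genes), at -0.21 on the log2 scale (SE 0.09, adjusted p = 0.395).

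The response labels divided no member past the threshold. Dbp held 7.02 to 13.7 CPM in the 6 responders (median 10.1) and 5.99 to 8.57 CPM in the 4 non-responders, whose tumours AB21, AB23, AB25 and AB44 held 5.99, 7.68, 8.09 and 8.57 CPM. In 5 of 6 responders Dbp lay above every non-responder. The log2 difference was 0.49 (SE 0.19, adjusted p = 0.164), and 0.30 with series as a block (adjusted p = 0.366). Arntl was at 26.9 to 32.8 CPM in responders and at 32.1, 33.7, 33.05 and 33.06 CPM in the non-responders AB21, AB23, AB25 and AB44, with 5 of 6 responders below every non-responder and a log2 difference of -0.16 (SE 0.07, adjusted p = 0.182). These were the 2 of 10 members with an unadjusted p below 0.05, which 22.6% of all genes reached, so their share is that of the background. No gene of the whole table was called in either direction by edgeR (a background of 0% higher and 0% lower), and DESeq2 called 0 members. The study, by DESeq2 with a fold change minimum, reports genes that were higher and genes that were lower in responders. The absence of calls over the whole table was thus seen with edgeR, and the count of DESeq2 over the whole table is not given here. Responders held 4 of their 6 tumours in series 4 and non-responders 3 of their 4 in series 2, so that response and series are partly confounded. Per1 did not differ beyond its spread, at 105 to 177 CPM in responders and 61.9 to 163 CPM in non-responders (log2 difference 0.27, 95% interval -0.21 to 0.75).

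Within treatments, no difference between the 2 series of each was called for any member, with 0 genes called by edgeR over all genes (0%), 0 members by DESeq2 and 1 member, Dbp, at an unadjusted p below 0.05 (5.49% of all genes). The spread within treatments differed between members. The standard deviation of log2 CPM was 0.54 for Npas2, 0.49 for Per1 and 0.43 for Per2, 0.30 for Per3, Nr1d1 and Dbp, 0.20 for Nr1d2, 0.15 for Clock, 0.14 for Arntl and 0.11 for Cry1, against a median of 0.22 over 14959 genes.

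Of the other clock genes listed, 21 were found and 19 tested. Tretinoin against PBS called 4 higher and 2 lower, against 11.5% and 8.95% of all genes. They included Hlf, a PAR bZIP factor of the Dbp family (log2 1.06, SE 0.15, adjusted p = 5.4e-05), Bhlhe41 and Bhlhe40, the DEC repressors (0.45 and 0.47), and Sirt1, a deacetylase (-0.15). ICT against PBS called 3 higher and 3 lower, against 14.1% and 7.15% of all genes, so that the 3 higher are near the background. Nfil3, the repressor that competes with DBP at D-boxes, rose by 1.49 on the log2 scale (SE 0.22) and Ciart, a repressor of the loop, by 0.46 (SE 0.13). Tef, another PAR bZIP factor, fell by 0.43 (SE 0.10) and Cry2 by 0.28 (SE 0.07). Tretinoin+ICT against ICT called 1, Bhlhe40 (log2 0.95, SE 0.15, adjusted p = 0.000977). The median log2 difference of the 19 was 0.00 for Tretinoin against PBS and -0.04 for ICT against PBS, beside 0.01 and -0.02 over all genes. No other clock gene passed in responders against non-responders. Btrc and Nampt were not analysed here.

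Of 10 other transcripts that cycle in many mouse organs, 5 of them in the list just given, 4 passed with Tretinoin (3 higher and 1 lower) and 6 with ICT (4 higher and 2 lower), to be read against the same shares of all genes. Usp2, a ubiquitin protease, rose by 0.32 on the log2 scale with ICT (SE 0.08) and Por, the partner of cytochrome P450 enzymes, by 0.42 with Tretinoin (SE 0.06). Beside Per1's difference stand the glucocorticoid response genes, of which 10 were tested. The gene lists were chosen with earlier results of these data known, so their counts are a description. Tsc22d3 is in this list and also among the cycling transcripts. ICT against PBS called 8 higher and 0 lower, where 14.1% of all genes were called higher, with a median log2 difference of 0.72. Tsc22d3 (GILZ) rose from 37.1 to 66.8 CPM in PBS tumours to 89.0 to 226 CPM in ICT tumours (log2 1.61, SE 0.15), and Dusp1, a phosphatase, by 1.60 (SE 0.13). Tretinoin against PBS called 5 higher, where 11.5% of all genes were, Errfi1 and Dusp1 among them (0.67 and 0.45), at a median of 0.34. Tretinoin+ICT against ICT called 0 by edgeR, where 1.57% of all genes were called higher. The summed level of the list was 577.1 to 687.1 CPM in PBS, 683.7 to 891.7 CPM in Tretinoin, 818.2 to 1333 CPM in ICT and 912.7 to 1406 CPM in Tretinoin+ICT tumours. Its part in the Per1 difference was not tested, and Klf9 was not analysed here. Of 8 immediate early genes tested, 3 rose with ICT against PBS, where 14.1% of all genes were called higher. With Tretinoin against PBS, Atf3 and Jun rose and Fos fell by 1.10 on the log2 scale (SE 0.13). The shares of all genes there were 11.5% higher and 8.95% lower. Tretinoin+ICT against ICT called 3 of the 8 higher and 0 lower, at a median log2 difference of 0.62. The shares of all genes there were 1.57% and 0.422%, and AB25, which stood apart in these genes, is among the Tretinoin+ICT tumours.

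Cell type markers also moved with treatment. The 5 macrophage markers found summed to 1942 to 2917 CPM in PBS tumours (median 2040), 2074 to 4311 CPM with ICT (median 3027) and 2754 to 4009 CPM with Tretinoin+ICT (median 3518), and 5 of 5 were called higher for ICT against PBS, where 14.1% of all genes were. The 4 neutrophil markers had medians of 66.5 CPM and 160.6 CPM in PBS and ICT tumours, and 4 of 4 were called higher. The 3 fibroblast markers had medians of 16926 CPM (11793 to 19253) in PBS tumours and 12799 CPM (8614 to 19850) in ICT tumours, and 0 of 3 were called. Which cells of these whole tumours, malignant or not, carried the fibroblast marker transcripts was not measured. T cell markers had medians of 37.7 and 33.04 CPM in PBS and ICT tumours, with 0 of 5 called. Keratinocyte markers had medians under 5 CPM in each treatment. Within series, over 39 tumours, the fibroblast sum followed Nr1d1 (Pearson r = 0.59, permutation p = 3e-04, adjusted p = 0.006; Spearman rho = 0.65, adjusted p = 0.0012) and Arntl (r = 0.56, permutation p = 0.00067, adjusted p = 0.0067; rho = 0.58, adjusted p = 0.0057). Without the 2 tumours farthest from the median these were 0.63 and 0.53. Per3 (r = 0.46, permutation p = 0.0109, adjusted p = 0.0627) and Nr1d2 (r = 0.45, permutation p = 0.0191, adjusted p = 0.0638) did not pass by Pearson's r, while by Spearman's rho Per3 passed (rho = 0.47, adjusted p = 0.0444) and Nr1d2 did not (rho = 0.42, adjusted p = 0.0688). Per2 did not pass by either measure (r = 0.41, permutation p = 0.0227, adjusted p = 0.0649), and Per1 had r = -0.08 (permutation p = 0.634). These were among 20 relations of the 10 members with the fibroblast and macrophage sums, added after the data had been examined. For the macrophage sum no relation passed. The nearest by Pearson's r were negative, Nr1d1 (r = -0.39, permutation p = 0.0125, adjusted p = 0.0627) and Nr1d2 (r = -0.43, permutation p = 0.016, adjusted p = 0.0638).

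**Figure D3:**
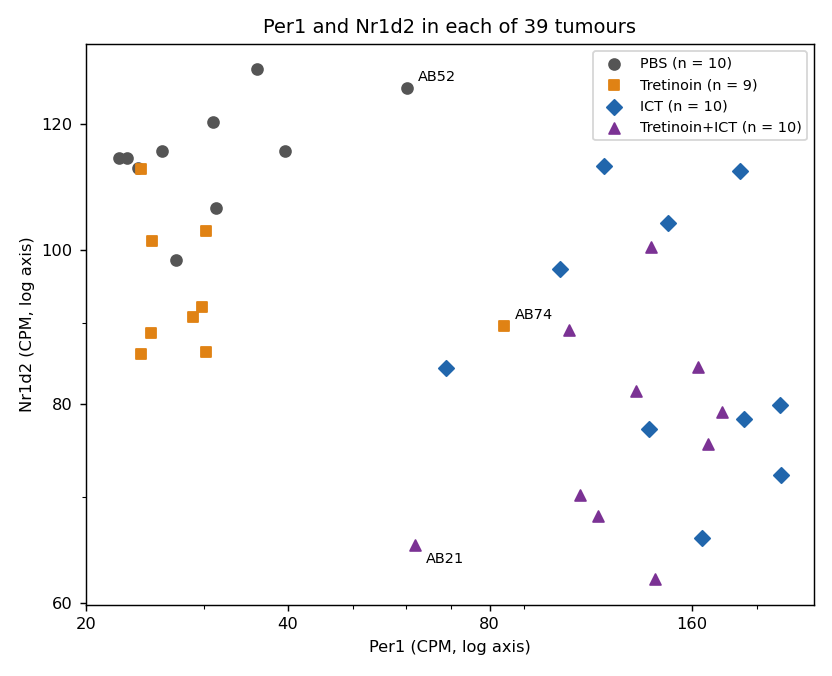
Per1 against Nr1d2 in each of the 39 tumours (CPM, both axes logarithmic), by treatment. Tumours with ICT lie to the right of those without except for AB61 and AB21, which lie to the left of Tretinoin tumour AB74, and Nr1d2 is lowest among them.

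Per2, Per3, Nr1d1, Nr1d2 and Dbp, which peak near each other in the clock's cycle, varied together in most pairings over all tumours. Within Tretinoin tumours most of these relations were weaker. With values centred on series, 8 of 45 pairs passed by permutation over 39 tumours, all of them positive and none negative. They were 8 of the 10 pairs among Per2, Per3, Nr1d1, Nr1d2 and Dbp (Dbp passed with neither Nr1d1 nor Nr1d2), led by Per2 with Per3 (r = 0.84, rho = 0.83, adjusted p = 0.00045, p = 1e-05, the smallest that the permutations can give) and Per3 with Nr1d2 (r = 0.72, rho = 0.69, adjusted p = 0.000675). Without the 2 tumours farthest from the median, the former was 0.79 and the latter 0.65. Per2 with Per3 had r = 0.91 within PBS, 0.82 within Tretinoin, 0.81 within ICT and 0.80 within Tretinoin+ICT tumours. Most of the other passing pairs were near 0 within the 9 Tretinoin tumours, where r was -0.06 for Per3 with Nr1d2, -0.12 for Per2 with Nr1d2, 0.08 for Per2 with Nr1d1, 0.12 for Per3 with Nr1d1 and 0.14 for Per3 with Dbp. In the same tumours r was 0.33 for Per2 with Dbp and 0.35 for Nr1d1 with Nr1d2. Within PBS, ICT and Tretinoin+ICT tumours these pairs were all positive. There r ran from 0.50 (Per3 with Dbp, Tretinoin+ICT) to 0.83 (Per2 with Dbp, ICT). Per1 passed in 0 of its 9 pairs, with Per2 nearest (r = 0.40, rho = 0.44, adjusted p = 0.0552). Per1 with Per2 had r = 0.65 within PBS, 0.62 within Tretinoin, -0.06 within ICT and 0.57 within Tretinoin+ICT tumours. Arntl was not opposed to Nr1d1 (r = 0.25, adjusted p = 0.205) or Dbp (r = -0.20, adjusted p = 0.536). It stood at r = 0.26 with Npas2 (adjusted p = 0.417), and Nr1d1 with Dbp at r = 0.48 (adjusted p = 0.0552). The log2 ratio of Dbp to Arntl, a level of one against the other, ranged from -2.10 to -0.83 in PBS tumours and from -2.42 to -1.38 with ICT.

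**Figure D4:**
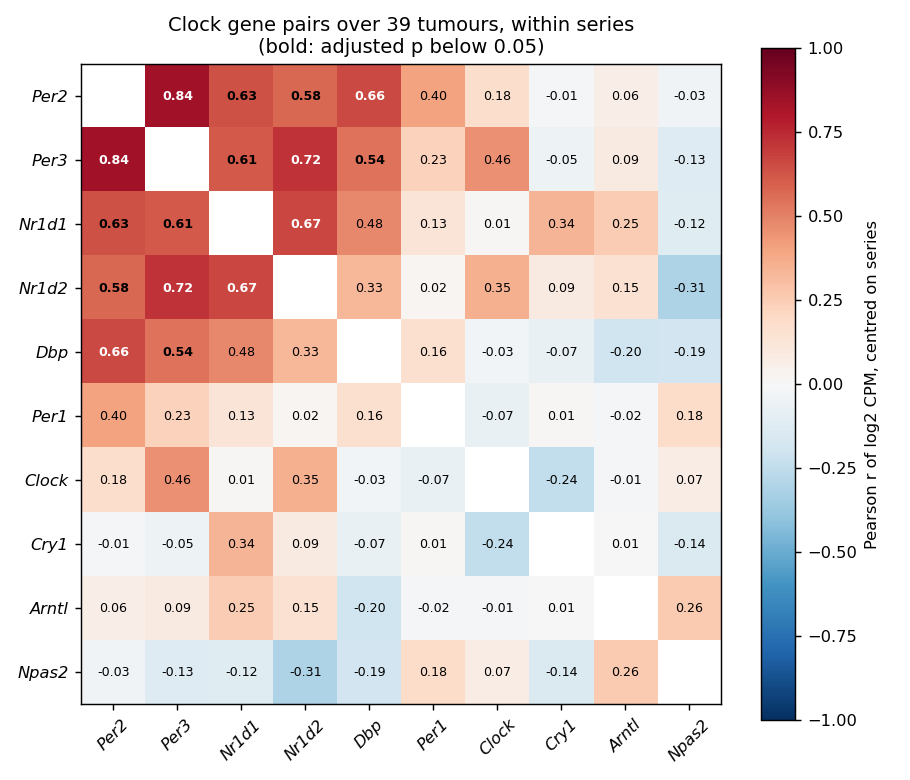
Pearson r of log2 CPM for each pair of clock genes over 39 tumours, centred on series, with bold type where the adjusted p was below 0.05. All 8 bold pairs lie among Per2, Per3, Nr1d1, Nr1d2 and Dbp, and the Per1, Arntl, Clock, Cry1 and Npas2 rows hold none.

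Likeness to all 12123 genes with a mean log2 CPM of at least 1 was measured as Pearson's r over the 39 tumours, which includes the differences between treatments. The genes most like Per1 were Tsc22d3 (r = 0.92), 8430408G22Rik (0.90), Zfp36l2 (0.89), Cebpd (0.88) and Ctgf (0.87), and centred on series their r was 0.71, 0.55, 0.67, 0.51 and 0.51. Among members, Per2 ranked 3529 in likeness to Per1 (r = 0.24, and 0.40 centred on series). Genes like Arntl included Plat (0.62), Slain2 (0.59), Eif4enif1 (0.59) and Abhd2 (0.55), and Nr1d1 ranked 3450. Those most like Nr1d1 were Tef (0.79), Mfap2 (0.77), Podn (0.73), Zhx2 (0.72) and Nr1d2 (0.72). Those most like Dbp were Per3 (0.69), Car11 (0.67), Tef (0.67), Ebf3 (0.65) and Cry2 (0.63). By this measure, which includes treatment differences, Nr1d1 and Dbp had other clock genes among their 5 nearest and Per1 had none. Ranks on values centred on series were not taken.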

How the data were processed

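RNA from 39 whole tumours was sequenced as single-end NovaSeq reads (bcl2fastq 2.20.0.422). The authors aligned reads with HISAT2 2.0.4 to a mouse genome they name mm11, counted them with SummariseOverlaps and deposited raw counts per gene, without normalization. The strand setting and the handling of reads that map to several places are not stated. Of 39676 identifiers, 36719 match GENCODE M21 (GRCm38) with their version. Nr1d2 has another version.

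Counts were analysed in R 4.3.3 with edgeR 4.0.16 (TMM, filterByExpr, robust quasi-likelihood test on the tumours compared) and DESeq2 1.42.0 as an alternative, and in Python 3.11.15 with scipy 1.17.1. CPM values are TMM-scaled, and log2 CPM used a prior count of 2. Calls required a Benjamini-Hochberg adjusted p under 0.05 across every gene tested. SE was derived from the size of the log2 change and the F statistic, and 95% intervals from SE. Correlations used 100000 permutations within series, two-sided, adjusted over 45 pairs. Fits were tested on simulated data. The interaction and series tests used all 39 tumours. Depth limits the precision of Npas2. The members, the gene lists and the tests were chosen with earlier results of these data known. All 10 members are named, with up to 4 passing genes of other lists and the 5 nearest genes of Per1, Arntl, Nr1d1 and Dbp, besides Cyp26b1 and Dhrs3. A gene that this rule names is not reported here.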

Additional observations from a re-analysis of the deposited data

Results flagged for a closer look

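In Tretinoin tumours, Per1 in AB74 stood apart at 6.39 log2 CPM (84.0 CPM), with the next highest at 4.92. In Tretinoin+ICT tumours, Per1 in AB21 was lowest at 5.95 log2 CPM (61.9 CPM), with the next at 6.71. Clock in PBS tumour AB12 was lowest at 5.51 log2 CPM (45.5 CPM), with the next at 5.79. Dbp in Tretinoin tumour AB35 was highest at 3.87 log2 CPM (14.5 CPM), with the next at 3.62. Each gap exceeded Dixon's 95% critical value for its group, and chance alone marks about 1 in 20 of the 60 groups examined.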

How the results depend on the processing

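With the absolute log2 fold change of at least 1 that the study's methods add, the members called fell to 0 in Tretinoin against PBS, 1 in ICT against PBS, 1 in Tretinoin+ICT against Tretinoin and 1 in Tretinoin+ICT against PBS. Without the low-count filter, 2 were called in Tretinoin+ICT against Tretinoin in place of 4, so Npas2 was not the only call lost there. The pooled relation of Per1 with Dbp was -0.40, and 0.16 when centred on series (adjusted p = 0.621). Nr1d1 with Dbp was 0.60 pooled and 0.48 centred, no longer past the threshold. DESeq2, its size factors in edgeR, a stricter filter and a fit of all 39 tumours moved no count of members called by 1.5 times. Alternatives that kept all tumours, or left out AB52 or AB74 (chosen after seeing the data), gave 387 log2 differences. Of these, 382 kept their side of the threshold and 5 lost the call. No difference that passed changed direction, and direction was not compared where neither setting passed. The lost calls were 3 without the low-count filter, 1 in the fit of all 39 tumours and 1 without AB74. Leaving out each tumour in turn was run only where a group or series had 2 to 5 tumours. There, responders against non-responders and the series test called 0 to 0 members. Neither had a call to lose, so this says nothing about the calls of the other comparisons. No paired analysis was possible because the labels give no replicate number shared between treatments.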
